A study of Mus musculus with 8 samples.

Results

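Tmem184a, Tmem184b and Tmem184c are the 3 mouse genes that carry the Tmem184 name, and they were taken from the deposited table by gene symbol, each matching 1 of 40800 gene identifiers. Total RNA was sequenced from dorsal root ganglia of 4 wild-type C57BL/6 mice and of 4 mice homozygous for a Tmem184b gene trap on a C57BL/6 background, all 6 months old. A gene trap is an inserted cassette that captures splicing of the host transcript. The labels give neither the insertion site nor the sex of the animals, and they name no restriction of the trap to a cell type, so every cell of the ganglion may carry it. Numbers are kept from the labels, which run 1, 3, 4 and 8 for the wild types and 1, 2, 3 and 4 for the mutants. Library totals were 6298533 to 7983821 reads in wild type and 6183618 to 6992793 in the mutant. All 10 markers of neurons were measured above the low-value limit, and their summed level was 9198 to 10118 CPM (counts scaled to a common library total) in wild type and 9297 to 10147 in the mutant. In whole ganglia, fewer cells of a type and less RNA per cell cannot be told apart.

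Tmem184 proteins cross the membrane several times and resemble the alpha subunit of the organic solute transporter, encoded by Slc51a, which works with the beta subunit encoded by Slc51b to move bile acids and steroids out of cells. TMEM184B sits in endosomal membranes, and in mice it is known for its part in the breakdown of injured axons and in the upkeep of nerve terminals at muscle. TMEM184A has been described as a heparin receptor of vascular cells, and much less is known of TMEM184C. The question put to the data here was whether either relative was higher where Tmem184b is trapped.

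Reads can be given to the wrong relative only where the transcripts share sequence, so the coding sequences were compared first. The longest complete coding sequences in GENCODE M21 were 1350 bases for Tmem184a, 1245 for Tmem184b and 1869 for Tmem184c. Over the aligned bases, Tmem184a and Tmem184b were 74.3% identical, Tmem184b and Tmem184c 63.8%, and Tmem184a and Tmem184c 62.3%. The longest run shared by Tmem184a and Tmem184b was 39 bases, at coding positions 370 to 408 of Tmem184a and 262 to 300 of Tmem184b, counted from the A of the start codon. It is shown in capitals with its flanks, since it is the place where reads of these 2 genes are hardest to separate.
Tmem184a: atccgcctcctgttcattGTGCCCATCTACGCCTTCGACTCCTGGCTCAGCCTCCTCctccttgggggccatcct
Tmem184b: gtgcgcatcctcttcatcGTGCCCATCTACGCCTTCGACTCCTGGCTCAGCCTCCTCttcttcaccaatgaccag
For Tmem184b and Tmem184c the longest shared run was 14 bases, at positions 364 to 377 and 361 to 374, again in capitals.
Tmem184b: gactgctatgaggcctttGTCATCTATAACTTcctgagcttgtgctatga
Tmem184c: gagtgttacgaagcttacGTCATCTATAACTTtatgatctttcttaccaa
Cut into overlapping words of 31 bases on both strands, the transcripts of Tmem184b held 4751 words, of which 9 also occurred in Tmem184a and 0 in Tmem184c. All 9 came from the 39-base run. Apart from Gm26938, a gene model that overlaps Tmem184a and holds the same run, no other gene shared a word with Tmem184b. Tmem184c shared 1 of its 2727 words with another annotated gene, Gm14736, and 0 with Tmem184a or Tmem184b. Tmem184a was less distinct, with 577 of 5262 words (11.0%) found in other genes. Of these, 437 lay in Gm26938 and 139 in Mafk, which overlaps the 3′ end of Tmem184a on the other strand.

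On the deposited log2 scale, Tmem184b was the gene with the largest fall. It lies on chromosome 15, GRCm38, at 79360684 to 79403569 on the minus strand. The 4 wild-type libraries held 1086, 1456, 1118 and 1296 of its reads, in the order of their labels, and the 4 mutant libraries 41, 43, 34 and 58. In CPM these were 172, 182, 166 and 164 in wild type and 6.12, 6.95, 5.24 and 8.29 in the mutant. No mutant library came near a wild-type one. Mutants minus wild types came to -4.64 in log2 CPM (SE 0.113; 95% interval -4.88 to -4.40; limma adjusted p = 2.57e-12). In the same fit, 820 of 15030 genes tested (5.46%) had an adjusted p under 0.05, 2.81% being higher and 2.64% lower in the mutant, and in 12.4% the groups did not overlap. Tmem184b ranked 1 among all of them both by size of difference on this scale and by p. The scale includes an added prior count, which understates the change of low genes. Without it, mean CPM fell by more in proportion for Nppb and Sst, which have few reads. Nppb went from 3.47 CPM in wild type to 0.0404 in the mutant and Sst from 10.8 to 0.376, beside 171 to 6.65 for Tmem184b. What remained of Tmem184b had a coefficient of variation (SD over mean) of 19.5% among the mutants, against 4.94% in wild type. The exact 95% Poisson interval was 23.5 to 47.5 reads in mutant 3, the lowest, and 44.0 to 75.0 in mutant 4, the highest. These intervals overlap, which does not show that the counts were alike. The variance between mutant libraries was 1.71 times that of counting alone, against 3.24 times between the wild types, where far more reads were counted. Intervals of this kind cover counting error only.

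Tmem184c was the most abundant of the 3 genes per length, and its groups overlapped. It lies on chromosome 8 at 77595982 to 77610698 on the minus strand. Its level was 143, 170, 149 and 180 CPM in wild types 1, 3, 4 and 8, from 903 to 1422 reads. In mutants 1 to 4 it was 165, 163, 159 and 197 CPM, from 1006 to 1376 reads. Mutant 4 was above every other sample and wild type 1 below every other, while mutants 1, 2 and 3 lay between wild types 4 and 3. Wild types averaged 160 ± 17.1 CPM and mutants 171 ± 17.4 (SD, 4 mice per genotype). The difference of 0.09 on the log2 scale did not pass the test (SE 0.0823; 95% interval -0.08 to 0.27; limma adjusted p = 0.565). As a change from wild type, the interval runs from -5.66% to 20.4%. The median gene differed by 0.066, and when each sample was centred on its own median the Tmem184c difference was -0.00053, so its direction depends on scaling.

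The spread of Tmem184c was wider than counting error. Variance between libraries was 13.0 times that of counting in wild type and 12.1 times in the mutant, and the coefficient of variation was 10.7% and 10.2%. Its pooled SD within groups, 0.15 on the log2 scale, was nevertheless ordinary, higher than in 43.0% of genes tested. Depth moved with the level in part. Wild types 3 and 8, with 7983821 and 7918481 reads, were the deepest wild-type libraries and had its highest wild-type levels. Mutant 4, with 6992793 reads, was the deepest and highest of the mutants. Mutant 2, the shallowest of all libraries at 6183618 reads, was nevertheless above mutant 3 and wild types 1 and 4. Mutant 4 also had the highest sums of neuronal markers (10147 CPM), satellite glia markers (3375 CPM, 2450 to 2874 in the other mutants) and skeletal muscle markers (170 CPM, 11.5 to 51.1 in the other mutants). Its sums of immune (97.1 CPM), vascular smooth muscle and pericyte (401 CPM) and red cell markers (124 CPM) were the highest as well. Its fibroblast sum, 1179 CPM, was the highest of the mutants but below wild type 4, at 1225 CPM. In the sums of Schwann cell and endothelial markers, mutant 1 was above it. The part of depth or of these cells in the Tmem184c level was not tested. Without mutant 4 the difference was 0.02 (limma adjusted p = 0.918).

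Tmem184a was barely detected in any ganglion. It lies on chromosome 5 at 139802485 to 139819917 on the minus strand. Wild types 1, 3, 4 and 8 held 1, 2, 1 and 2 reads and mutants 1 to 4 held 4, 1, 1 and 1, so mutant 1 was the one library above 3 reads, the count taken as the limit of detection. Over each group, 6 reads in wild type gave 0.207 CPM (exact 95% Poisson interval 0.0761 to 0.451) and 7 reads in the mutant gave 0.266 CPM (0.107 to 0.547). No fold is given at so few reads. The exact two-sided permutation test over the 70 assignments of samples gave p = 0.886 for the difference in CPM. Tmem184a did not reach the low-value limit of log2 CPM above 0 in at least 4 of the 8 samples. In the fit of 26092 genes without that limit, where 3.0% were called, its limma adjusted p was 0.890. Differences of a few reads in Tmem184a were not detectable at this depth, while the upper end of the mutant interval, 0.547 CPM, stayed far under the 171 CPM of Tmem184b in wild type. Vascular cells, where TMEM184A is best known, were present in the samples: 9 of 9 endothelial markers and 8 of 9 markers of vascular smooth muscle and pericytes were above the limit. Their summed levels were 91.6 to 129 and 309.5 to 385 CPM in wild type, and 99.0 to 138 and 319 to 401 CPM in the mutant.

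**Figure D1:**
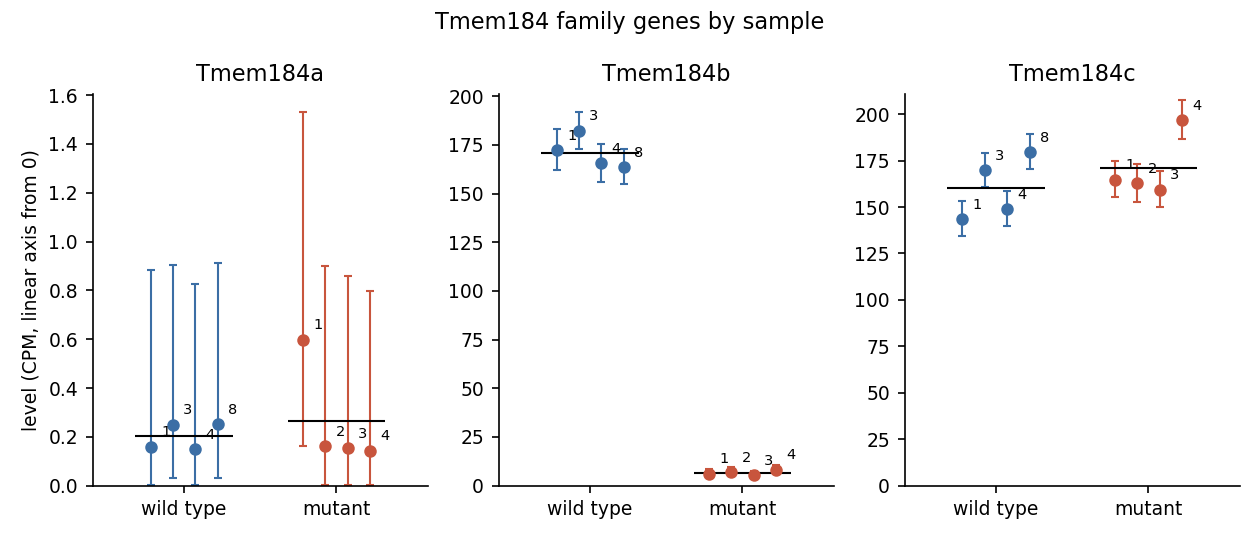
Level of Tmem184a, Tmem184b and Tmem184c in each library, in CPM on linear axes from 0 that differ in range between panels. Points carry the sample number, bars are exact 95% Poisson intervals of the reads (counting error only) and horizontal lines are group means. Tmem184b separates the genotypes, Tmem184c overlaps between them with mutant 4 highest at 197 CPM, and Tmem184a stays at or below 4 reads.

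Levels of the 3 genes were set against each other per kilobase of merged exons, 5277, 4702 and 2723 bases for Tmem184a, Tmem184b and Tmem184c. In wild type Tmem184c stood at 58.9 ± 6.30 CPM per kilobase and Tmem184b at 36.4 ± 1.80 (SD, n = 4), and Tmem184a at 0.0384 ± 0.0108. The lowest Tmem184c value, 52.7, was above the highest Tmem184b value, 38.8. Among 14993 tested genes with an annotated length, the wild-type level per kilobase of Tmem184c was above 96.2% and that of Tmem184b above 92.4%. With the length of the longest transcript in place of merged exons, Tmem184c at 53.5 to 67.1 stayed above Tmem184b at 45.1 to 50.3. Without any length the ranges overlapped, with means of 171 CPM for Tmem184b and 160 for Tmem184c. Even in the mutants the remaining Tmem184b, 1.11 to 1.76 CPM per kilobase, exceeded Tmem184a, at 0.0271 to 0.113.

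The summed level shows how much of the family transcript was left. In wild types 1, 3, 4 and 8 the 3 genes added up to 89.4, 101, 89.9 and 101 CPM per kilobase. In mutants 1 to 4 they added up to 61.9, 61.3, 59.7 and 74.1. The groups did not overlap, and the mutant mean of 64.2 ± 6.62 was 67.4% of the wild-type mean of 95.3 ± 6.58 (SD, n = 4). This sum is a description, given with no test, since it contains the trapped gene. Tmem184b made up 38.3 ± 2.74% of the sum in wild type and 2.19 ± 0.258% in the mutant, where Tmem184c alone made up 97.5 to 98.1%.

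**Figure D2:**
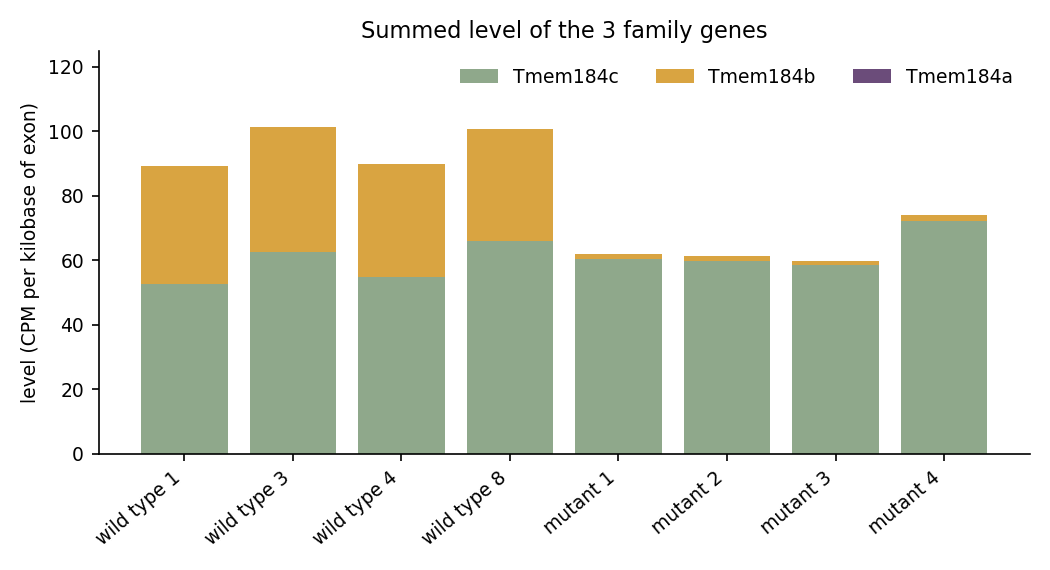
Stacked level of the 3 family genes in each library, in CPM per kilobase of merged exons from 0. The bars of the 4 mutants reach 59.7 to 74.1 and those of the 4 wild types 89.4 to 101. The Tmem184a segment is too thin to see in most bars.

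Neither relative rose by the level lost. Tmem184b lost 35.0 CPM per kilobase on average, and mean Tmem184c was 3.84 CPM per kilobase higher in the mutant, a difference equal to 11.0% of that loss and itself within the replicate spread. Tmem184a and Tmem184c together averaged 59.0 ± 6.31 CPM per kilobase over the wild types and 62.8 ± 6.38 over the mutants (SD, 4 mice each). To equal the loss, Tmem184c would have had to be higher by 0.67 on the log2 scale, or 1.59-fold. That value is 0.81 with longest-transcript lengths and 1.02 with no length. The upper end of the 95% interval for Tmem184c was 0.27, which corresponds to 34.3% of the loss per kilobase. Across the 20 alternative fits the highest upper end was 0.37, with 6 samples, and the lowest adjusted p was 0.325. These are transcript levels and say nothing of protein.

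**Figure D3:**
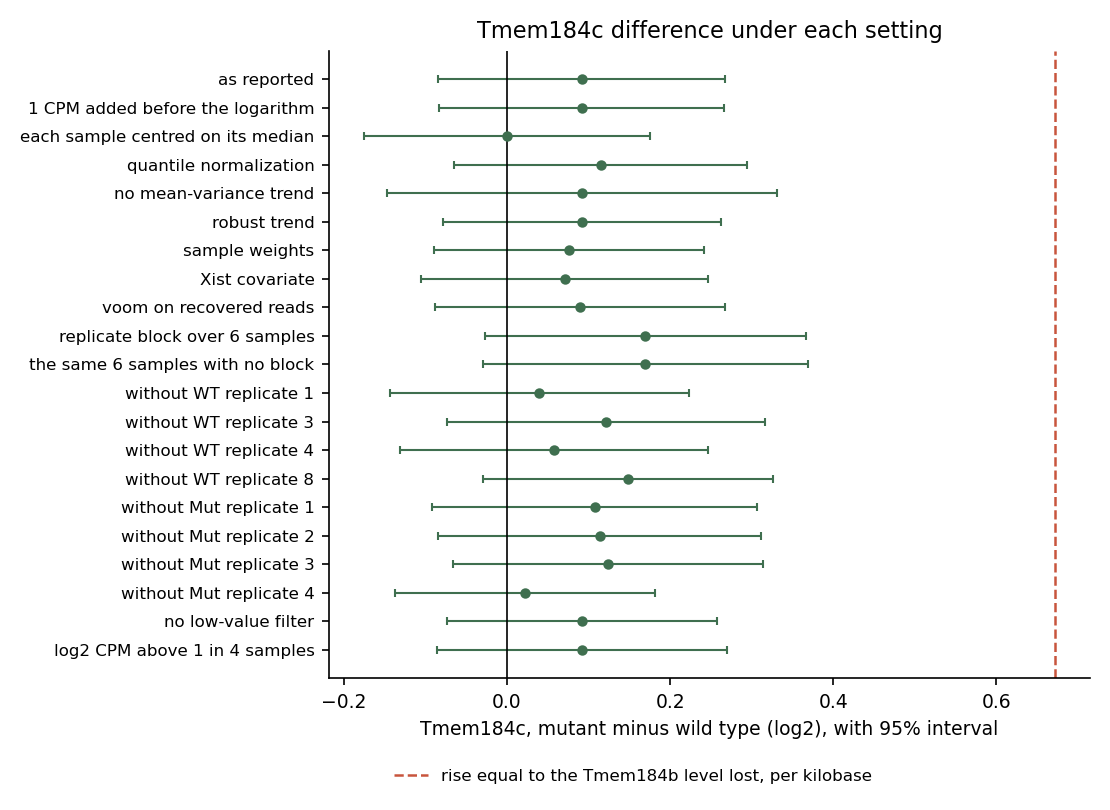
Tmem184c difference, mutant minus wild type, on the log2 scale (points) with its 95% interval (bars) as reported and under 20 alternatives. The solid line marks 0 and the dashed line marks 0.67, the rise that would equal the Tmem184b level lost per kilobase. The interval includes 0 and ends below the dashed line in each of them.

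The genes of the organic solute transporter were scarce. Slc51a, its alpha subunit, had 30, 32, 11 and 40 reads in wild types 1, 3, 4 and 8 and 10, 12, 19 and 29 in mutants 1 to 4. Its groups overlapped widely, and the difference of -0.49 on the log2 scale did not pass (SE 0.340; 95% interval -1.22 to 0.23; limma adjusted p = 0.435). With 1 library left out it ran from -0.29 without mutant 1 to -0.83 without wild type 4, where the adjusted p was 0.105. Slc51b, the beta subunit, had 1 read each in wild types 1 and 3 and 0 in the other 6 libraries, where a count of 0 allows up to 0.379 to 0.485 CPM.

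The genes around each family member were compared next, to see whether genes beside the trapped locus or beside its relatives differed as well. Within 500 kb of the 3 genes, 51 genes were tested and 3 (5.88%) were called, beside 5.46% of all genes tested. Near Tmem184b, 33 were tested, with differences from -0.41 to 0.80 and a median of 0.05, and 2 were called, both more than 380 kb away. Nptxr, a receptor for neuronal pentraxins, lies 383 kb on the 5′ side and differed by -0.41 in log2 CPM (SE 0.0897; limma adjusted p = 0.0163). Its 4 wild types averaged 262 ± 21.7 CPM (SD) and its 4 mutants 198 ± 27.2, with no overlap. Lgals1, which encodes galectin-1, lies 430.2 kb on the 3′ side and was higher by 0.46 (SE 0.104; limma adjusted p = 0.0187), from 102 ± 11.7 to 141 ± 23.2 CPM. Lgals1 and Nptxr lost their calls without the mean-variance trend, at an adjusted p of 0.133 and 0.128, and without mutant 1, at 0.0524 and 0.0505. Lgals1 also lost it without wild type 1, at 0.0676.

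The nearest neighbours of Tmem184b did not pass the test. Maff, a small Maf transcription factor gene that lies 1.61 kb away on the 3′ side, had 26 to 53 reads in wild type and 19 to 40 in the mutant, a difference of -0.27 (SE 0.234; limma adjusted p = 0.546). With 1 library left out the Maff difference ran from -0.06 without mutant 4 to -0.45 without mutant 2. Csnk1e, which encodes casein kinase 1 epsilon, lies 14.3 kb on the 5′ side. Its log2 CPM was 5.99, 5.87, 5.95 and 5.80 in wild types 1, 3, 4 and 8 and 5.59, 5.82, 5.78 and 5.62 in mutants 1 to 4. All mutants but mutant 2 were below every wild type, and the difference was -0.20 (SE 0.0755; limma adjusted p = 0.139). With each sample centred on its median, Csnk1e was at -0.29 and was called, at an adjusted p of 0.0456. Pla2g6, a phospholipase gene, differed by -0.01 and Kcnj4, a potassium channel gene, by 0.08. Mir1943, a microRNA gene inside Tmem184b, had at most 1 read in any library.

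Around the relatives, 1 gene was called. Tmem184a overlaps Mafk, another small Maf gene, which had 78 to 120 reads in wild type and 62 to 95 in the mutant, a difference of -0.27 that did not pass (SE 0.143; limma adjusted p = 0.296). Gm26938 had 0 reads in all 8 libraries. Of 14 genes tested near Tmem184a, 1 was called, beside 5.46% of all genes tested. Gm24146, annotated as a miscellaneous RNA at -25.01 kb (negative on the 5′ side), rose by 0.73 (SE 0.148; limma adjusted p = 0.0113), from 36, 57, 38 and 43 reads in the wild types to 65, 56, 63 and 83 in the mutants, and kept its call in the 20 alternatives. Psmg3, a proteasome assembly gene, differed by 0.30 and Micall2 by 0.29, and neither passed, at adjusted p of 0.361 and 0.373. Elfn1 and Ints1, an Integrator complex gene, each differed by less than 0.01. Near Tmem184c 4 genes were tested and 0 were called by limma or by voom. Prmt10, which encodes a protein arginine methyltransferase, differed by -0.03, Ednra, the endothelin A receptor gene, by 0.25, and Arhgap10 by 0.35 (limma adjusted p = 0.874, 0.503 and 0.207). Of the 4, 1 had an unadjusted p under 0.05, beside 21.3% of all genes tested, and it was Arhgap10.

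**Figure D4:**
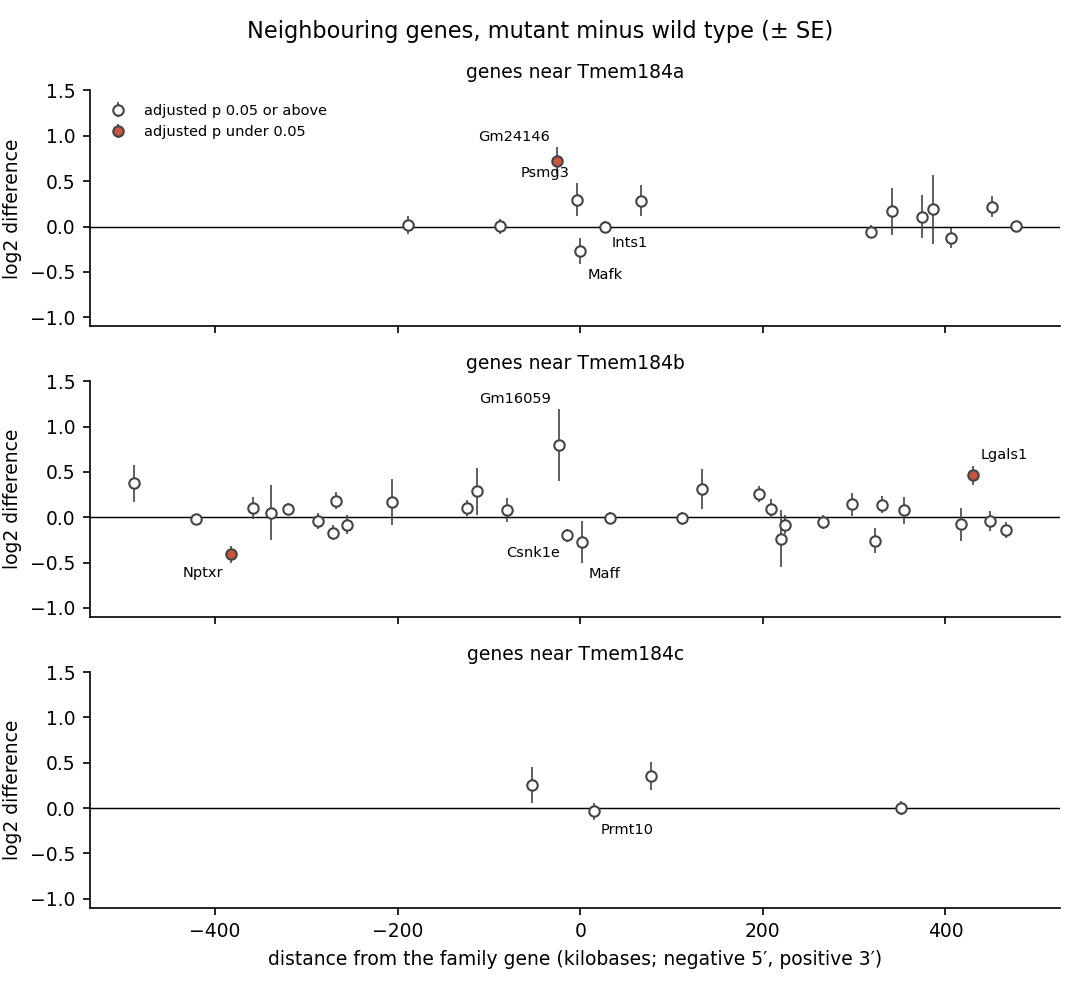
Difference in log2 CPM, mutant minus wild type, of each tested gene within 500 kb of Tmem184a (top), Tmem184b (middle) and Tmem184c (bottom), against its distance from the family gene in kilobases, negative on the 5′ side. Bars are SE and filled points have a limma adjusted p under 0.05. The filled points are Gm24146 at 0.73, Nptxr at -0.41 and Lgals1 at 0.46.

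Genes whose sample-by-sample pattern was most like that of a family gene were found by the root mean square difference in log2 CPM over the 8 samples, after each gene was centred on its own mean. For Tmem184b the nearest were Sst, the somatostatin gene, at 0.56, Nppb, the natriuretic peptide B gene, at 0.72, and Il31ra, an itch cytokine receptor gene, at 0.76. They share the same contrast, with log2 differences of -4.06, -3.47 and -3.28 against -4.64 for Tmem184b. Il31ra had 237 to 330 reads per wild-type library and 20 to 33 per mutant library. In the same order, Sst had 47 to 124 and 1 to 5, and Nppb 13 to 40 and 0 to 1. The trapped gene itself had 1086 to 1456 and 34 to 58. For Tmem184c the nearest were Uqcc1, a respiratory complex III assembly gene, at 0.024, Pfn2, the profilin 2 gene, at 0.028, and Mrps18a, a mitochondrial ribosome gene, at 0.029. Uqcc1, too, was highest in mutant 4, at 6.18 log2 CPM, against 5.93, 5.88 and 5.87 in the other mutants and 5.75, 5.94, 5.75 and 6.00 across the wild types. Uqcc1, Pfn2 and Mrps18a differed by 0.11, 0.06 and 0.09 and did not pass, at limma adjusted p of 0.518, 0.706 and 0.632. All were picked for likeness from the 15030 genes tested, over 8 samples.

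**Figure D5:**
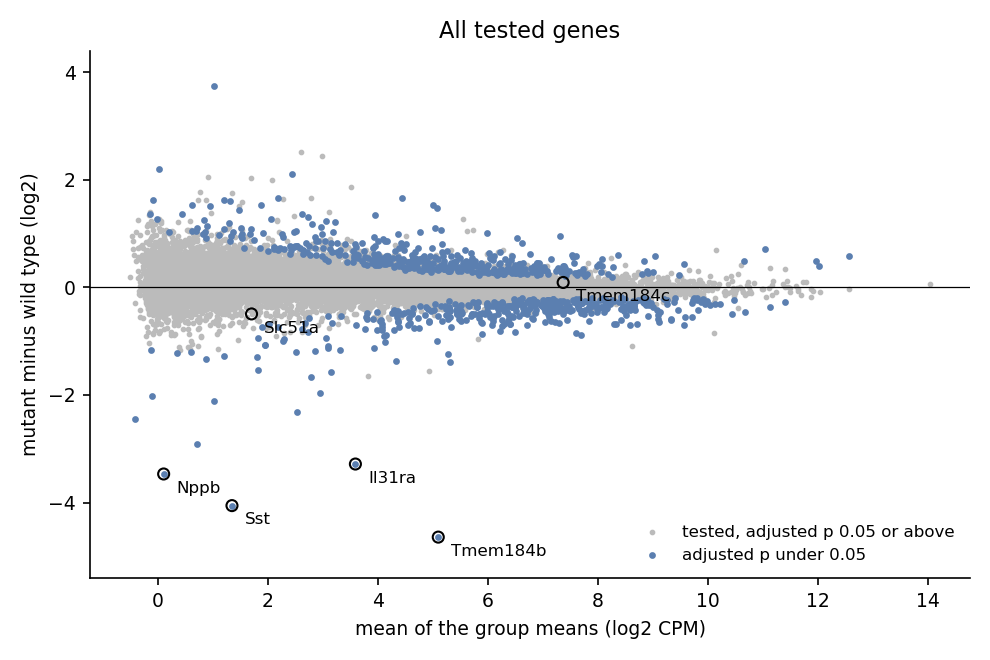
Difference in log2 CPM, mutant minus wild type, against mean log2 CPM for the 15030 genes tested, with those at a limma adjusted p under 0.05 in blue. Circles mark Tmem184b at -4.64, below all other genes on this scale, and the genes most like it (Sst, Nppb and Il31ra). They also mark Tmem184c at 0.09 and Slc51a at -0.49.

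Genes of the processes that Tmem184b is known for were examined as lists. Of 26 axon degeneration genes, such as Sarm1, the NAD-cleaving executioner, and Map3k12, the injury-sensing kinase DLK, 25 were tested and 0 were called by limma or by voom, beside 5.46% of all genes tested. Of the 25, 17 were higher and 8 lower, from -0.14 to 0.39, and the median was 0.05 against 0.066 for all genes. An unadjusted p under 0.05 was reached by 3 of the 25, beside 21.3% of all genes tested, and they are named here after their values were seen: Nmnat1, a nuclear NAD synthesis gene, at 0.39, Bcl2l1, an anti-apoptotic gene, at 0.26, and Capn1, a calpain gene, at -0.14. Of 26 endosome and lysosome genes, all tested, 1 was called, a share no higher than the 5.46% of all genes. It was Ctsl, the gene of the lysosomal protease cathepsin L, which fell by 0.43 in log2 CPM (SE 0.101; limma adjusted p = 0.0221). Its log2 CPM was 8.54, 8.87, 8.67 and 8.70 in wild types 1, 3, 4 and 8 and 8.27, 8.13, 8.60 and 8.05 in mutants 1 to 4. Mutant 3 lay above wild type 1, and the other mutants below all wild types. The list had 15 genes higher and 11 lower with a median of 0.03. Ctsl lost its call without the trend (adjusted p = 0.147), under the robust trend (0.0707), and without wild type 3 (0.0719), mutant 1 (0.0578), mutant 2 (0.0673) or mutant 4 (0.0578). It also lost it in the 6 samples numbered 1, 3 and 4 (0.113), though not in those 6 with the replicate block (0.0202).

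Markers of other cells are given beside these results, and the genes named among them were picked after their values were seen. The summed levels of each marker list overlapped between the genotypes. The counts called stand against 5.46% of all genes tested, and those at an unadjusted p under 0.05 against 21.3%. Counts of genes that were higher stand beside a median gene that was itself higher, by 0.066. Satellite glia markers were higher in 9 of 9 genes, with 2 called, among them Glul at 0.49, and 6 at an unadjusted p under 0.05. They summed to 2131 to 2612 CPM in wild type and 2450 to 3375 in the mutant. Myelinating Schwann cell markers were higher in 8 of 9, with 2 called (Ncmap at 0.69 and Drp2 at 0.40). Of these markers 5 had an unadjusted p under 0.05, and the sums were 2460 to 3229 and 2915 to 3518 CPM. Immune markers were higher in 6 of 7 tested, with 1 called (Cd163 at 0.80) and 4 at an unadjusted p under 0.05. Their sums were 45.5 to 73.2 and 61.4 to 97.1 CPM. Fibroblast markers were higher in 7 of 7, with 1 called (Dcn at 0.60) and 3 at an unadjusted p under 0.05. Their sums were 612 to 1225 and 795 to 1179 CPM. Skeletal muscle markers were higher in 6 of 6 tested with 0 called by limma or voom and 6 at an unadjusted p under 0.05, at 3.49 to 36.9 and 11.5 to 170 CPM. Red cell markers were higher in 5 of 5 with 0 called by either tool and 0 at an unadjusted p under 0.05, at 39.9 to 108 and 65.0 to 124 CPM. Neuronal markers were higher in 4 of 10 and lower in 6, with 1 called, Syt1 at -0.25, and 4 at an unadjusted p under 0.05. Endothelial markers were higher in 7 of 9 and those of vascular smooth muscle and pericytes in 6 of 8, with 0 called by limma or voom and 2 and 3 at an unadjusted p under 0.05. No marker list had a gene at 0 reads throughout. The part of these cells in the levels of the Tmem184 genes was not tested.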

How the data were processed

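The deposited values are moderated log2 CPM, that is, log2 of counts scaled to a common library total after a prior count (2 reads at mean depth) was added. A second deposited column holds each gene's GC percent and was not used. Salmon 0.11.1, DESeq2 and mm9 are named in the submitters' processing notes, and strand use and annotation are not given in the sources used here. Whole reads were recovered by removing the common floor of -1.79, after which 100.0% of values lay within 0.01 of a whole read. Of 41422 lines, 402 identifiers were repeated with the same values and used once.

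Genes with log2 CPM above 0 in at least 4 of 8 samples entered limma 3.58.1 under R 4.3.3 (lmFit, eBayes with trend, no covariate, two-sided, Benjamini-Hochberg adjustment, threshold 0.05). The procedure was tested on simulated data. On this moderated scale the change of a low gene is understated. Nothing in the labels says how the 4 animals of a group were housed or prepared, so p-values measure the spread between these samples. The deposited column headers carry a further number per sample, lower in every mutant than in every wild type. What these numbers stand for is not given, and it cannot be told apart from genotype. The members and lists were chosen with earlier results of these data known. The genes named are the family, the Slc51 genes, overlapping genes, the 2 nearest protein-coding genes on each side, called neighbours and pathway genes, and the 3 most similar genes. Outside this rule, 3 axon degeneration genes and some called markers were named after their values were seen, and 1 called marker is not reported here by name. The summed level is described without the permutation test first planned for it. Coordinates and transcript sequences come from GENCODE M21 (GRCm38), which is not the mm9 build named in the notes. Alternatives covered filter, pseudocount, scaling, variance model, sample weights, Xist, voom, a replicate block, leaving out each sample, gene length and distance. Python 3.11.15, numpy 2.4.6, pandas 2.3.3, scipy 1.17.1, Biopython 1.88 and matplotlib 3.10.9 were used.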

Additional observations from a re-analysis of the deposited data

Results flagged for a closer look

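In 62 groups of 4 values, a lone sample far from its group was found in 5. For independent values on a continuous scale, chance would give about 3.1, or about 1 in 20. Tmem184a and Nppb, at a few reads at most in the mutants, and sums that share Tmem184c are not such values. The 5 can therefore not be weighed against 3.1. Mutant 1 stood apart in Tmem184a, at -0.17 log2 CPM (4 reads) against -1.21 to -1.15 in the other mutants (1 read each). Mutant 4 stood apart in Tmem184c, at 7.62 log2 CPM against 7.32 to 7.37. As Tmem184c dominates both sums, mutant 4 was also apart in the summed level of the 3 genes, at 74.1 CPM per kilobase against 59.7 to 61.9, and in that of Tmem184a and Tmem184c, at 72.3 against 58.6 to 60.6. For Nppb the lone sample was mutant 2, at -1.15 log2 CPM (1 read) against -1.79 (0 reads) in the others.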

How the results depend on the processing

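Tmem184b was called in all 20 alternatives, from -4.75 to -4.50, and Tmem184c in 0 of 20. Reversed directions, all far from the threshold, were Tmem184c (-0.00053), Kcnj4 (-0.0093), Elfn1 (-0.090), Pfn2 (-0.035) and Mrps18a (-0.0047) under median centring, the sum of Tmem184a and Tmem184c (log2 ratio -0.0062) under division by the sample median, and Elfn1 (-0.023), Kcnj4 (-0.026) and Ints1 (0.021) under quantile normalization. With 1 sample left out, Tmem184a ranged from -0.15 (without mutant 1) to 0.20, Tmem184c from 0.02 to 0.15, Elfn1 from -0.050 to 0.068, Ints1 from -0.037 to 0.031, Pla2g6 from -0.038 to 0.017, Prmt10 from -0.082 to 0.035 and Pfn2 from -0.0021 to 0.10. Genes called higher and lower numbered 423 and 397 as reported, 204 and 706 under median centring, 67 and 75 without the trend, 271 higher under quantile normalization, and 174 to 572 and 230 to 427 with 1 sample left out. Called neighbours were 3 as reported, 4 under median centring and 4 with the replicate block. They were 1 without the trend, 1 within 250 kb, and 1 to 3 with 1 sample left out. The cause of these shifts was not tested. Numbers 1, 3 and 4 are shared by both genotypes, and the labels do not say whether they pair the samples. Correlations of deviations between samples of the same number were 0.081, 0.041 and 0.058. Samples of different numbers were not correlated beside them, so these values cannot decide it. A fit with the replicate block over those 6 called 326 genes higher and 345 lower, against 180 and 267 in the same 6 without it, and Tmem184b was at -4.69 and Tmem184c at 0.17 (adjusted p = 0.325) with the block. Depth limits Tmem184a, at 1 to 4 reads a library.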
